A study of Mus musculus with 14 samples.

Results

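The apicobasal polarity complexes are represented here by 10 genes of the 23284 in each count table: Pard3, Pard6a, Pard6b, Prkci and Prkcz of the Par complex, Crb3, Mpp5 and Inadl of the Crumbs complex, and Scrib and Llgl2 of the Scribble module. They were picked by name, using the symbols of the tables (Inadl is the older symbol of Patj, and Mpp5 is also called Pals1), and each passed the filter on low counts that left 14804 genes. The samples are primary mouse small cell lung cancers, 7 of genotype Rb1/Trp53/Crebbp (Rbp53CrebbpSCLC, called RPC) and 7 of genotype Rb1/Trp53 (Rbp53SCLC, called RP). The tumour suppressor genes Rb1 and Trp53 are thus altered in all 14 tumours, and Crebbp, a histone acetyltransferase and coactivator, in the RPC tumours only. The comparison addresses which genes differ when Crebbp is altered as well. The strain, age, sex and number of animals, the driver of any Cre and the deleted exons are not stated in the sources used here, and the labels number the tumours without saying that each came from its own animal. P-values therefore measure the spread between these samples, which may be partly technical.

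Epithelial cells set an apical surface apart from a basolateral one with several groups of proteins that hold each other in place. The Par proteins and atypical protein kinase C (aPKC) and the Crumbs proteins mark the apical side and its junctions, and the Scribble proteins, Lgl among them, mark the basolateral side. By phosphorylating Lgl proteins, aPKC keeps them out of the apical domain. Loss of polarity is a common feature of carcinomas. Small cell lung carcinomas are neuroendocrine, and their cells keep epithelial genes to a varying degree.

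RPC libraries held 10060969 to 24052799 counts in genes and RP libraries 10965714 to 23678648. Crebbp, counted over the whole gene, was at 57.9 to 69.8 CPM (a count relative to all gene counts of its library, after TMM scaling) in RPC tumours and 59.3 to 96.9 CPM in RP tumours, with all 7 RPC tumours under the RP median of 69.9 CPM and only 1 under every RP tumour. The deleted part is not known here, so that this gene-level count neither shows nor checks the genotype. All 7 neuroendocrine markers used (Calca, Chga, Syp, Ncam1, Insm1, Uchl1 and Scg2) had counts in every library, with a summed level of 1380 to 4335 CPM in RPC tumours and 2624 to 6939 CPM in RP tumours, ranges that overlapped. The 4 epithelial markers (Epcam, Cdh1, Krt8 and Krt18) summed to 5.80 to 1934 CPM in RPC tumours and 2242 to 4337 CPM in RP tumours. These summed ranges did not overlap between genotypes. Taken singly, Epcam, Cdh1 and Krt18 overlapped. Only Krt8 did not (at most 547.7 CPM in RPC and at least 626.6 CPM in RP tumours), where 1.14% of tested genes separated completely. Of the 11 genes of both lists 0 passed the test, where 2.21% of tested genes did. RPC tumours 3, 5 and 6 stand apart by their macrophage markers. The 6 macrophage markers summed to 3.12 to 6.56 CPM in these libraries, to 359.0 to 1898 CPM in the other RPC tumours and to 473.0 to 1342 CPM in RP tumours, and 1, 4 and 2 of them were at 0 counts in RPC tumours 3, 5 and 6, against 0 in the other 11 libraries. Fibroblast markers summed to 3.45, 117.8 and 5.53 CPM in RPC tumours 3, 5 and 6, against 212.1 to 816.9 CPM in RP tumours. Endothelial markers summed to 6.90, 84.8 and 1.70 CPM in the same 3 libraries, against 67.3 to 206.1 CPM in RP tumours. The sums of RPC tumour 5 came almost wholly from Pdgfra (117.0 CPM) and Kdr (82.8 CPM). Its other fibroblast markers were at 0.379 CPM or less and its other endothelial markers at 2.06 CPM or less. Alveolar type 2 markers summed to 10.8, 19.6 and 9.10 CPM in RPC tumours 3, 5 and 6, against 52.1 CPM or more in RP tumours. Type 1 markers summed to 58.1, 47.8 and 52.2 CPM, against 69.0 CPM or more in RP tumours. RPC tumour 4 was lower still (6.90 CPM for type 2 and 37.4 CPM for type 1), so low alveolar sums are not particular to these 3 libraries. RPC tumour 5 also had the lowest epithelial sum of all tumours, 5.80 CPM, with Cdh1, which encodes E-cadherin, at 0.650 CPM and Krt8 at 0.217 CPM. Its neuroendocrine markers summed to 2912 CPM, within the range of the other RPC tumours. Within that sum Calca was the lowest of all tumours (33.5 CPM) and Ncam1 the highest (435.5 CPM). The rest lay within the range of the other tumours. In a bulk sample, fewer cells of a type and less RNA per cell cannot be told apart.

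Of the 10 polarity genes, 0 passed the test of RPC against RP over 14 tumours (edgeR's quasi-likelihood test, with p adjusted by Benjamini and Hochberg over all genes and a threshold of 0.05), where 2.21% of tested genes did. At an unadjusted p under 0.05 the count was 1, Prkci, against 21.3% of all tested genes, and DESeq2, which called 9.67% of tested genes, called Prkci alone of the 10 (adjusted p = 0.0476). The count was 0 with limma-voom (3.40% of tested genes called) and 0 with a term for the level of non-tumour markers (0.0473%), with 3 and 1 of the 10 at an unadjusted p under 0.05, where 27.5% and 10.5% of tested genes were. The genotypes separated completely for 0 of the 10 and for 1.14% of tested genes. The median log2 fold change was 0.06 over the 10 genes and 0.00 over all tested genes. Crb3 and Llgl2 had the lowest values, Prkci the highest, and 6 genes had positive and 4 negative fold changes. Without RPC tumour 5 the count was again 0, where 1.27% of tested genes passed. At an unadjusted p under 0.05 were 3 of the 10 and 18.3% of tested genes. These 3 were Llgl2, Crb3 and Prkci (edgeR unadjusted p = 0.00601, 0.00947 and 0.0123). Without RPC tumours 3, 5 and 6 the count was 0, where 0.0716% passed. In that fit 2 of the 10 (Llgl2 and Prkci) and 11.9% of tested genes were at an unadjusted p under 0.05.

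**Figure D1:**
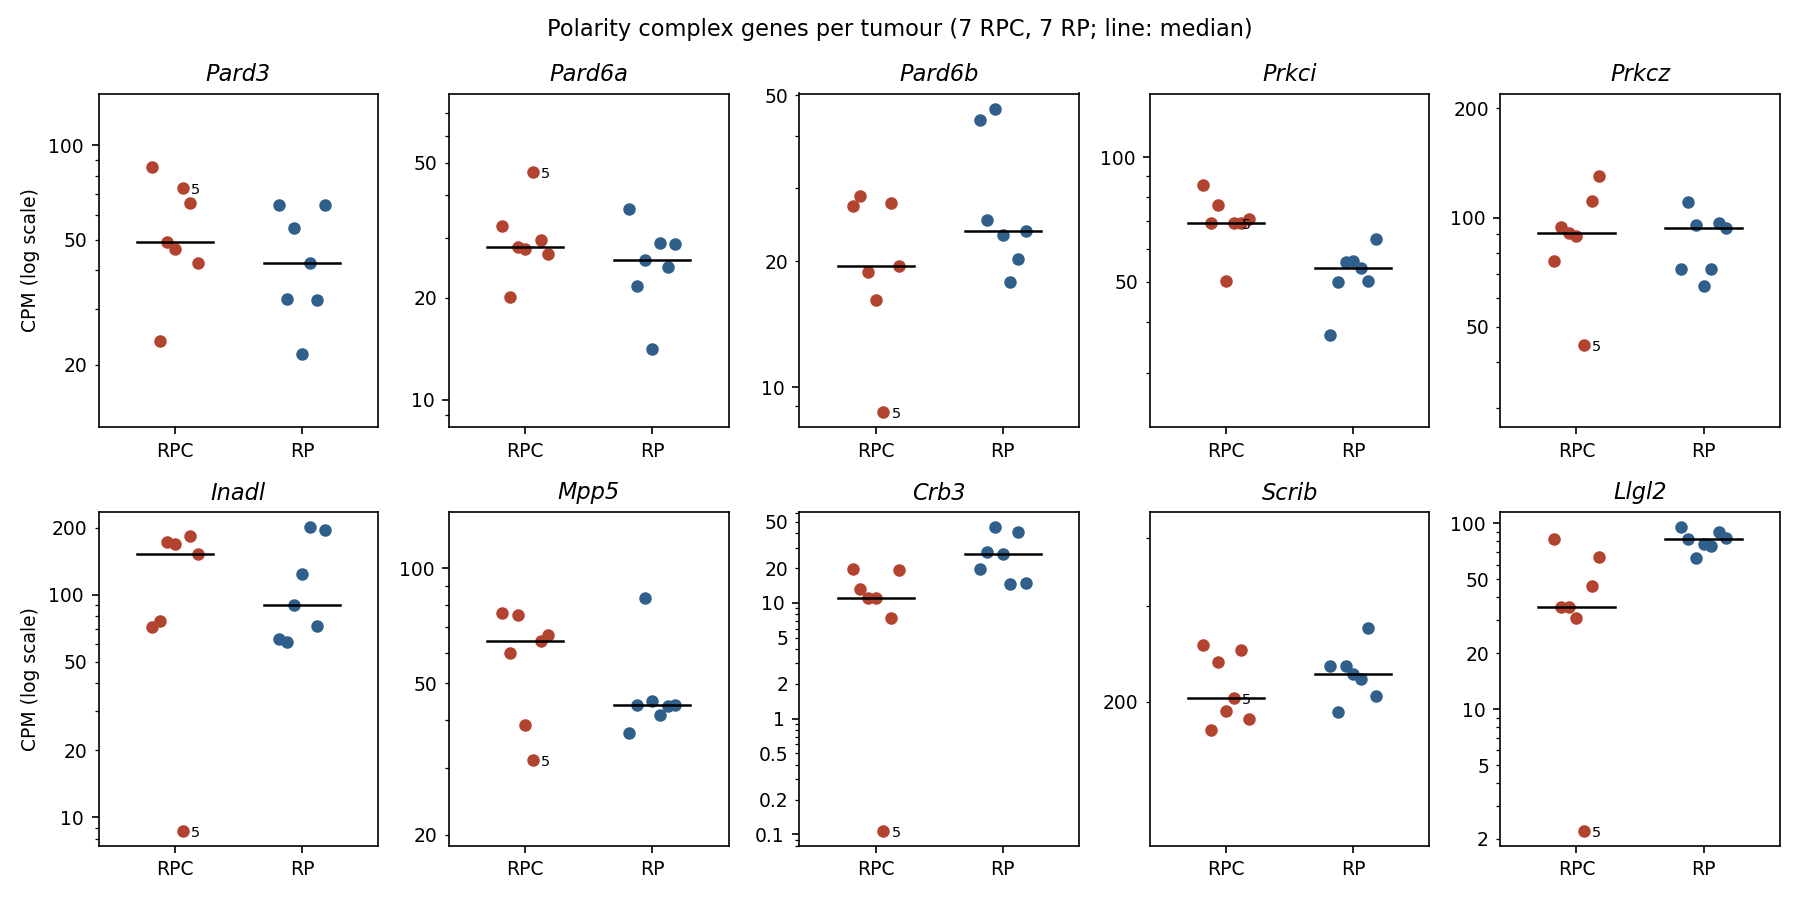
CPM of each polarity gene (log axis, a scale per panel) in 7 RPC and 7 RP tumours; each point is a tumour, the line is the median, and the digit 5 marks RPC tumour 5. RPC tumour 5 lies far below the rest for Crb3 (0.108 CPM), Llgl2 (2.22 CPM) and Inadl (8.73 CPM), and 6 of 7 RPC tumours lie above every RP tumour for Prkci.

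The Crumbs complex is built on a transmembrane Crumbs protein whose short cytoplasmic tail binds the scaffold encoded by Mpp5, which in turn binds the multi-PDZ scaffold encoded by Inadl. Crb3 is the Crumbs gene expressed broadly in epithelia. Crb3 was at 0.108, 11.02 and 19.7 CPM in RPC tumours (lowest, median and highest) and at 14.6, 26.3 and 45.1 CPM in RP tumours. All 7 RPC values lay under the RP median and 5 of them under every RP tumour, while RPC tumours 1 and 7, at 19.7 and 19.2 CPM, lay within the RP range. The log2 fold change was -1.21 ± 0.60 (SE; edgeR adjusted p = 0.265), and it was -0.98 ± 0.33 (SE; adjusted p = 0.142) without RPC tumour 5 and -0.77 ± 0.35 (SE; adjusted p = 0.421) without RPC tumours 3, 5 and 6. In RPC tumour 5 the gene had 2 counts, which allow 0.0131 to 0.392 CPM (exact Poisson interval, 95%, counting error only). The epithelial markers summed to 5.80 to 1052 CPM in the 5 RPC tumours under the RP range, to 1656 and 1934 CPM in RPC tumours 1 and 7, and to 2242 CPM or more in RP tumours, and their part in this difference was not tested.

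The bases before the annotated starts of Crb3 and 3 other polarity genes are shown because the genes differ in how many copies they hold of CAGGTG, an E-box bound by the repressors of the Snail and ZEB families. Capitals mark CAGGTG or its reverse complement CACCTG. The sequences are from RefSeq on GRCm38.p6, the plus strand, 250 bases up to the first annotated start, while the counts were made on mm9. They lie at chr17:57061951-57062200 (Crb3), chr2:168080754-168081003 (Pard6b), chr4:98395576-98395825 (Inadl) and chr3:30995521-30995770 (Prkci).
Crb3: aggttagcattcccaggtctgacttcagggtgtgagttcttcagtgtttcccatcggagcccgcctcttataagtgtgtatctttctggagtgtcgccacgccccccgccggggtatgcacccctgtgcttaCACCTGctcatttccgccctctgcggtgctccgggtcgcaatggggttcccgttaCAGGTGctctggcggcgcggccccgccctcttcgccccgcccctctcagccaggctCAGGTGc
Pard6b: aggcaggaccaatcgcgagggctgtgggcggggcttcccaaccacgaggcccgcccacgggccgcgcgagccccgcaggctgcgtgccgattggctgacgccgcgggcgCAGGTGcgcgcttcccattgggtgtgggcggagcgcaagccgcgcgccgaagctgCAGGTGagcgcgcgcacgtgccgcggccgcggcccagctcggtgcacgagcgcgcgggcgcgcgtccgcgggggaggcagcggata
Inadl: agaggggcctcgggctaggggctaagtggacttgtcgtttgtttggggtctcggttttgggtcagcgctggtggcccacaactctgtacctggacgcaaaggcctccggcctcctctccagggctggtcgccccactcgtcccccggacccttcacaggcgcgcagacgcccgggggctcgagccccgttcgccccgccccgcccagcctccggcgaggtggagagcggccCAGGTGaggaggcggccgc
Prkci: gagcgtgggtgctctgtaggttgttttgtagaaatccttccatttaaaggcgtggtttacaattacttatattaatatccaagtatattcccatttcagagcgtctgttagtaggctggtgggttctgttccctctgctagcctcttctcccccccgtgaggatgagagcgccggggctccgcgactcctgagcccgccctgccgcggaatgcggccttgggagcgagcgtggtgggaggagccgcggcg

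The window of Crb3 held 3 such E-boxes, which begin 118, 63 and 7 bases upstream of the start, where 0.247% of all 32851 promoter windows of that length hold at least 3. Pard6b held 2 and Inadl 1, and Prkci held none. Of the 7 polarity genes with an entry (Pard3, Pard6a, Pard6b, Prkci, Prkcz, Inadl and Crb3), 4 had at least 1 in the window before the first start, where 17.2% of all windows do. Prkcz was the fourth, with 2. Counting every annotated start of these 7 genes, 7 of 14 windows and 5 of 7 genes held the motif, since the window of a second start of Pard3 held 3. The 2 windows of Crb3 overlap and hold the same 3 E-boxes, so these are counted in both. The match of letters is a description and does not show binding. The cyclic AMP response element TGACGTCA, which reads the same on both strands and is a site of the CREB proteins that recruit Crebbp, was found in 1 of 14 windows of these 7 genes (at a second start of Pard6a) and in 1.55% of all windows.

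Inadl, the Patj scaffold, had levels of 8.73, 153.0 and 183.0 CPM in RPC tumours and 61.0, 89.4 and 200.9 CPM in RP tumours (lowest, median and highest). Both genotypes spread widely: RP tumours 5 and 7 were at 200.9 and 194.3 CPM and RP tumours 1 and 2 at 63.1 and 61.0 CPM. In the RPC group tumours 1 and 2 were at 71.9 and 76.1 CPM, 4 tumours at 153.0 CPM or more, and RPC tumour 5 below every other tumour of either genotype. The log2 fold change was 0.05 ± 0.49 (SE; edgeR adjusted p = 0.963), and 0.26 ± 0.34 (SE; adjusted p = 0.716) without RPC tumour 5. Its sign turned in 8 of 21 alternative fits, so no direction can be given.

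Mpp5, the scaffold that joins Crumbs to Inadl, was at 31.5, 64.3 and 76.2 CPM in RPC tumours and at 36.9, 43.8 and 83.6 CPM in RP tumours. In RP tumours 6 of 7 values lay between 36.9 and 44.8 CPM, and RP tumour 3 alone reached 83.6 CPM. RPC tumours 4 and 5 lay at 38.9 and 31.5 CPM and the other 5 between 59.9 and 76.2 CPM, above the same 6 RP tumours. The log2 fold change was 0.29 ± 0.23 (SE; edgeR adjusted p = 0.481) and 0.48 at most over the alternative fits.

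In the Par complex, Pard3 encodes the scaffold that anchors the others at the junction, Pard6a and Pard6b encode adaptors that link Cdc42 to aPKC, and Prkci and Prkcz encode the iota and zeta forms of aPKC. Prkci was at 50.2, 69.5 and 85.6 CPM in RPC tumours and at 37.1, 54.1 and 63.3 CPM in RP tumours (lowest, median and highest). Of the 7 RPC tumours 6 lay above every RP tumour, and RPC tumour 4, at 50.2 CPM, lay within the RP range. The log2 fold change of 0.42 (SE 0.14) had an unadjusted p of 0.00761 and an edgeR adjusted p of 0.104, from 0.0783 to 0.205 when each library was left out in turn. Without RPC tumours 3, 5 and 6 it was 0.40 ± 0.18 (SE; adjusted p = 0.404).

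Prkcz was at 44.7, 90.6 and 130.0 CPM in RPC tumours and at 64.9, 93.3 and 110.3 CPM in RP tumours. The groups overlapped over most of their range, RPC tumour 5 being the lowest and RPC tumour 7 the highest of 14. The log2 fold change was 0.07 ± 0.20 (SE; edgeR adjusted p = 0.857). Prkcz also makes a shorter kinase, PKM zeta, from an internal promoter in neurons, and counts per gene do not tell the forms apart.

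Pard3 was at 23.8, 49.0 and 85.2 CPM in RPC tumours and at 21.7, 42.3 and 64.3 CPM in RP tumours (log2 fold change 0.31 ± 0.29 (SE), p adjusted by edgeR = 0.560). RPC tumours 1, 5 and 6 were above every RP tumour and RPC tumour 2 was near the RP minimum. Pard6a was at 20.1, 28.2 and 47.0 CPM in RPC tumours and at 14.1, 25.8 and 36.4 CPM in RP tumours (log2 fold change 0.24 ± 0.22 (SE), p adjusted by edgeR = 0.548), with its highest value of 14 in RPC tumour 5. Without RPC tumours 3, 5 and 6 the log2 fold changes of Pard3 and Pard6a were 0.16 and 0.07, and Pard6a was at 0.10 without RPC tumour 5 alone. Pard6b was at 8.73, 19.5 and 28.7 CPM in RPC tumours and at 17.9, 23.7 and 46.4 CPM in RP tumours (log2 fold change -0.45 ± 0.29 (SE), p adjusted by edgeR = 0.391). Pard6b was lowest of all in RPC tumour 5, and RP tumours 1 and 3, at 43.5 and 46.4 CPM, stood above the other 12.

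The Scribble module is basolateral. Scrib encodes its LRR and PDZ scaffold, and Llgl2 encodes an Lgl protein found in epithelia, a substrate of aPKC, alongside the more widely expressed Llgl1. Scrib was the steadiest of the 10 genes, with an SD of 0.19 in log2 CPM over 14 tumours. It was at 177.6, 203.4 and 253.9 CPM in RPC tumours and at 191.3, 224.4 and 272.9 CPM in RP tumours (log2 fold change -0.08 ± 0.12 (SE), p adjusted by edgeR = 0.736).

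Llgl2 was at 2.22, 35.4 and 82.0 CPM in RPC tumours and at 64.8, 81.9 and 95.4 CPM in RP tumours. The RP tumours lay close together. RPC tumours 2, 3, 4, 5 and 6, at 35.4, 35.3, 31.0, 2.22 and 46.1 CPM, were under every RP tumour, and RPC tumours 1 and 7, at 82.0 and 66.1 CPM, were within the RP range. These are the same 5 tumours that were under every RP tumour for Crb3. The share of tested genes with this pattern is not given here, so the match says nothing particular to these genes. The log2 fold change was -0.93 ± 0.46 (SE; edgeR adjusted p = 0.256), -0.72 ± 0.22 (SE; adjusted p = 0.120) without RPC tumour 5 and -0.59 ± 0.25 (SE; adjusted p = 0.378) without RPC tumours 3, 5 and 6.

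**Figure D2:**
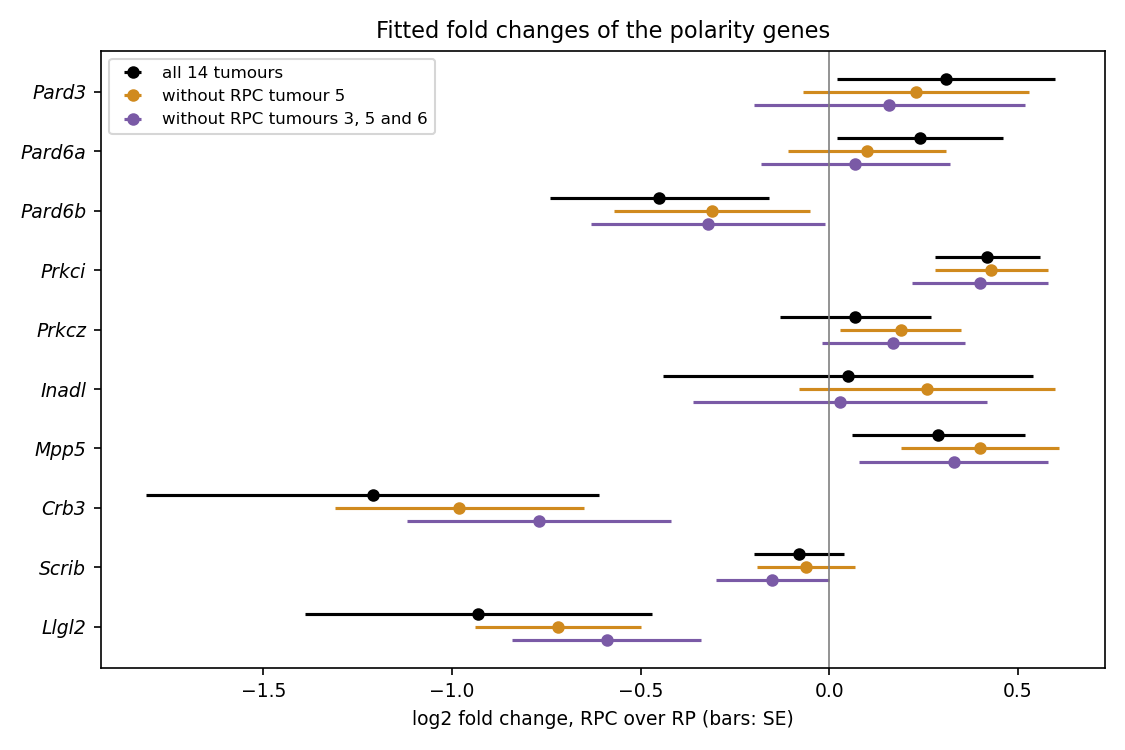
Fitted log2 fold change of RPC over RP (bars: SE) for the 10 polarity genes with all 14 tumours, without RPC tumour 5 and without RPC tumours 3, 5 and 6. Crb3 (-1.21, -0.98 and -0.77) and Llgl2 (-0.93, -0.72 and -0.59) were nearer to 0, with narrower bars, in both smaller sets of tumours, and Prkci stayed between 0.40 and 0.43.

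Paralogues were next compared within each library, where the log2 ratio of their levels does not depend on the scaling. The ratio of Llgl2 to Llgl1 averaged -1.91 ± 1.64 in RPC tumours and -0.31 ± 0.42 in RP tumours (SD, n = 7 each), a difference of -1.60 (exact two-sided permutation test over 3432 splits, p = 0.00350, Benjamini-Hochberg adjusted over 3 ratios 0.0105). All 7 RPC tumours lay under the RP median, with values from -5.46 to -0.42 against -1.13 to 0.17 in RP tumours, so the ranges overlapped. Without RPC tumour 5 the difference was -1.01 (exact permutation test, adjusted p = 0.0192), and without RPC tumours 3, 5 and 6 it was -0.83 (exact permutation test, adjusted p = 0.0818). For Llgl1 alone the fitted log2 change was 0.19 ± 0.16 (SE; edgeR adjusted p = 0.497). The epithelial markers are low in the same RPC tumours, and their part in the shift of the ratio was not tested. Llgl2 values were known from earlier results of these data when the ratio was chosen.

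The ratio of Pard6b to Pard6a averaged -0.58 ± 0.91 in RPC tumours and 0.11 ± 0.56 in RP tumours (SD, n = 7 each; exact permutation test, adjusted p = 0.140). Leaving out RPC tumour 2 gave a difference of -0.88 with an adjusted p of 0.0437 by the same exact permutation test, and leaving out RPC tumour 5 gave -0.39 with 0.277. The ratio of Prkci to Prkcz averaged -0.32 ± 0.56 in RPC tumours and -0.71 ± 0.33 in RP tumours (SD, n = 7 each; exact permutation test, adjusted p = 0.140). Its highest value, 0.63, was in RPC tumour 5, where Prkcz was lowest.

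Levels of different genes were compared per kilobase of the longest coding transcript. On this scale Scrib had the highest level of the 10 genes, at 38.2 ± 5.67 CPM per kb in RPC tumours and 40.3 ± 4.61 CPM per kb in RP tumours (SD, n = 7 each). In RPC tumours Pard6a (23.8 ± 6.50), Prkcz (22.2 ± 6.56), Inadl (16.2 ± 9.12) and Prkci (14.9 ± 2.26 CPM per kb) followed, and these neighbours lay within each other's spread. In RP tumours Llgl2 (22.5 ± 2.76), Crb3 (22.3, from 12.1 to 37.4), Prkcz (21.1 ± 4.09) and Pard6a (20.2 ± 5.41 CPM per kb) came after Scrib, again within each other's spread. Llgl2 averaged 11.8 ± 7.13, Mpp5 10.8 ± 3.18, Crb3 9.67 ± 5.62 and Pard3 9.47 ± 3.58 CPM per kb in RPC tumours, also within each other's spread. Pard6b was the lowest of the 10 in RPC tumours, at 6.16 ± 2.15 CPM per kb, while in RP tumours Pard3 (7.65 ± 2.89), Pard6b (8.41 ± 3.37) and Mpp5 (8.82 ± 2.89 CPM per kb) were lowest and within each other's spread.

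Summed per length within a family, Llgl2 gave 28.4 ± 13.9% of the Lgl level in RPC tumours and 49.1 ± 7.10% in RP tumours, and Llgl1 the rest. Pard6b gave 4.26% to 26.3% of the Pard6 level in RPC tumours and 11.6% to 34.3% in RP tumours. Pard6a, the main form in each genotype on this per-length scale, gave 54.0 ± 3.89% in RPC and 50.7 ± 4.67% in RP tumours. Pard6g gave 31.0 ± 3.18% and 27.7 ± 8.26%. In CPM not divided by length Pard6g was above Pard6a, with means of 43.1 against 30.3 CPM in RPC and 34.2 against 25.7 CPM in RP tumours. Among the aPKC genes Prkci gave 41.2 ± 9.34% in RPC tumours and 34.7 ± 5.24% in RP tumours. Inadl gave 48.0 ± 25.9% of its sum with Mpdz, the other large multi-PDZ scaffold of this kind, in RPC tumours and 67.6 ± 17.0% in RP tumours (means ± SD, n = 7 each). In RPC tumours 1 and 5 the Inadl share was 13.0% and 10.1%. RPC tumour 1 had 490.5 CPM of Mpdz, against 112.3 CPM at most in RP tumours, and RPC tumour 5 had 8.73 CPM of Inadl.

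**Figure D3:**
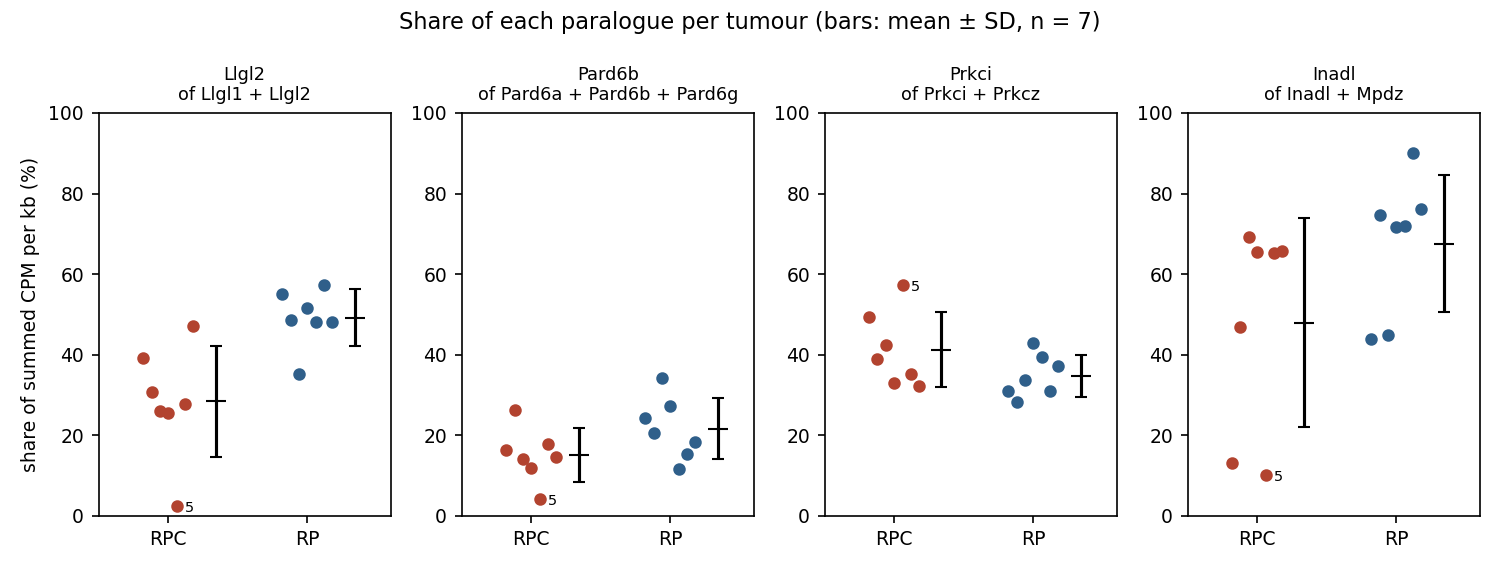
Share (%) that Llgl2, Pard6b, Prkci and Inadl give of the summed CPM per kb of their family in each of 7 RPC and 7 RP tumours (points), with mean ± SD and the digit 5 at RPC tumour 5. The Llgl2 share was 28.4 ± 13.9% in RPC and 49.1 ± 7.10% in RP tumours and was 2.49% in RPC tumour 5.

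Across tumours the 10 genes did not move as a block. RPC tumour 5 was the lowest of 14 for 6 of them (Pard6b, Prkcz, Inadl, Mpp5, Crb3 and Llgl2), the highest for Pard6a and next to the highest for Pard3. The share of all tested genes with their lowest level in RPC tumour 5 is not given here, so this count says nothing particular to polarity genes. Scrib in that tumour, at 203.4 CPM, was at the RPC median. RP tumour 3 was the highest of 14 for Pard6b, Mpp5 and Crb3, and RPC tumour 1 for Pard3 and Prkci.

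Of 8 regulators of the epithelial state, 6 had their highest or lowest level of 14 in RPC tumour 5. These 8 were chosen after their values were seen, and the share over all tested genes is not given here. The count is therefore a description only. Zeb1, a repressor of epithelial genes, was at 153.8 CPM in it, against 17.7 to 82.2 CPM in the other RPC tumours and 8.04 to 60.3 CPM in RP tumours. Twist1, another inducer of the mesenchymal state, was at 62.7 CPM there and at 25.1 CPM in RPC tumour 3, against 3.82 CPM at most in the other 12. Grhl2, an activator of epithelial genes, was at 0.163 CPM and Esrp1, an epithelial splicing factor, at 0.325 CPM, against at least 7.28 and 78.6 CPM in the other 13. Snai2, of the Snail family, was highest there at 9.16 CPM, and Ovol1, which opposes the mesenchymal state, was lowest at 1.03 CPM. Zeb2, at 26.1 CPM, lay within the RP range of 14.7 to 41.0 CPM, and Snai1, at 1.19 CPM, lay below the RP range of 2.11 to 5.12 CPM but within that of the other RPC tumours. Zeb1 averaged 64.0 ± 44.7 CPM in RPC tumours and 31.9 ± 18.7 CPM in RP tumours (SD, n = 7 each) and did not pass the comparison of genotypes (edgeR adjusted p = 0.236). The part of these genes in the levels of Crb3, Llgl2 and Inadl was not tested.

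**Figure D4:**
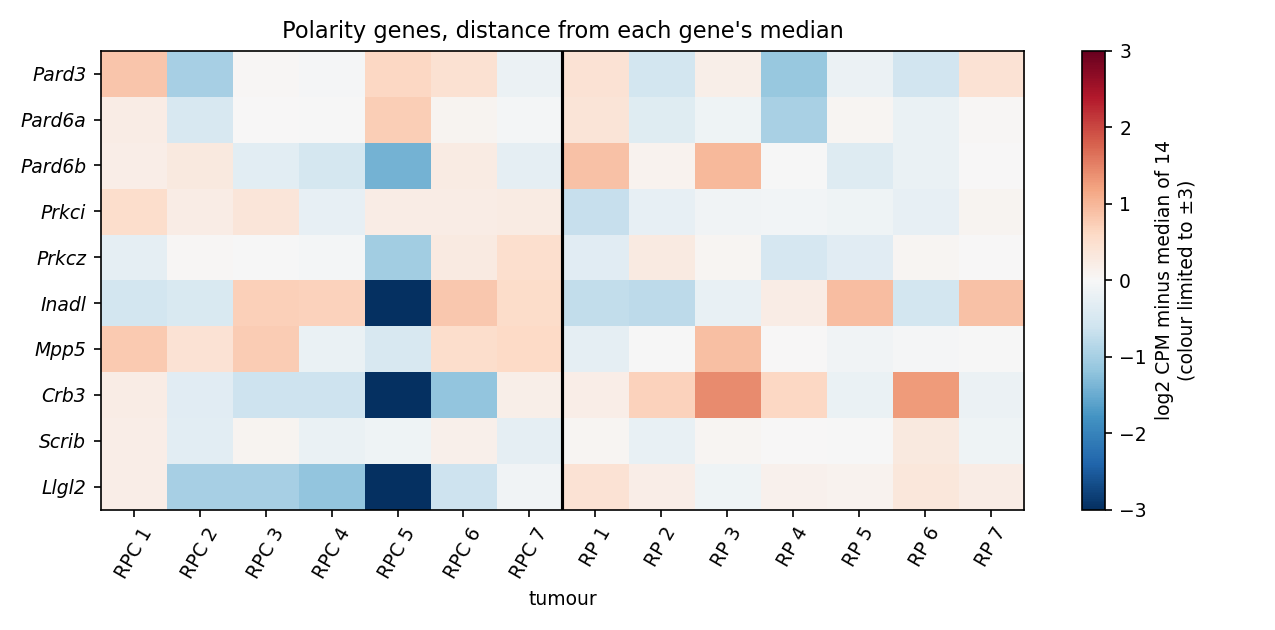
Log2 CPM of each polarity gene minus its median over 14 tumours (red higher, blue lower, colour limited to ±3), RPC tumours on the left and RP tumours on the right. The dark column is RPC tumour 5 at Inadl, Crb3 and Llgl2, where CPM were 8.73, 0.108 and 2.22, and Scrib is near its median in every tumour.

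Crb3, Llgl2 and Inadl had the largest SD of log2 CPM over 14 tumours, at 1.82, 1.38 and 1.18, and the genes most like each were sought among all tested genes by the root mean square difference of median-centred log2 CPM over the 14 tumours. The closest to Crb3 were Epcam, an epithelial adhesion molecule (0.38), St14, which encodes the protease matriptase (0.44), and the kinase gene Ripk4 (0.49), where the median gene differed by 1.86. The closest to Llgl2 were the adaptor gene Grb7 (0.32), the desmosomal plakophilin gene Pkp2 (0.39) and the protease inhibitor gene Spint2 (0.41), where the median gene differed by 1.52. Epcam, the closest to Crb3, was at 4.07 CPM in RPC tumour 5 and at 218.9 to 1068 CPM in the other 13. For Inadl the closest were 1700007L15Rik (0.65), 1700021C14Rik (0.66) and Aif1l (0.70), against a median of 1.27, a weaker likeness. Each of these 9 genes was lowest of 14 in RPC tumour 5. They were picked for likeness to genes very low in that tumour, so this follows from the choice and is no separate result.

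The other genes of the polarity machinery were read in 5 lists of 64 genes together, of which 62 were tested. Vangl1 was the only gene of the 62 to pass, where 2.21% of all tested genes did. Vangl1 encodes a planar polarity membrane protein whose family binds Scribble. It fell to 10.2, 19.5 and 30.3 CPM in RPC tumours, against 28.5, 44.8 and 60.8 CPM in RP tumours (lowest, median and highest), and 6 of 7 RPC tumours were under every RP tumour. Its log2 fold change was -1.18 ± 0.23 (SE; edgeR adjusted p = 0.0244). Its call was lost without RPC tumour 3 (adjusted p = 0.0513), without RP tumour 6 (0.0538), with a log2 fold change of -1.20 in both, and also without RPC tumours 3, 5 and 6 (log2 fold change -0.98, adjusted p = 0.148) and with a term for non-tumour markers (-0.93, adjusted p = 0.185). Of the other 12 tested genes of the Scribble list, 0 passed. They include Gpsm2, a spindle orientation adaptor (log2 fold change -0.74 ± 0.23 (SE), p adjusted by edgeR = 0.0972), and Dlg2, a scaffold of the Dlg family, at 5.29 ± 8.20 CPM in RPC tumours and 0.784 ± 0.889 CPM in RP tumours (SD, n = 7 each; log2 fold change 2.73, edgeR adjusted p = 0.141). RPC tumour 5, at 23.4 CPM, was far above the other RPC tumours (0.0439 to 5.36 CPM), and the log2 fold change of Dlg2 was 1.51 without it (adjusted p = 0.366), and the adjusted p was 0.748 without RPC tumours 3, 5 and 6. Arhgef7, which encodes the Rac and Cdc42 exchange factor beta-PIX, was the most abundant of the list (log2 fold change 0.17, edgeR adjusted p = 0.493, and 0.05 without RPC tumours 3, 5 and 6).

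Among 11 Par complex relatives and partners 0 passed and the median log2 fold change was -0.13. The smallest p belonged to Tiam1, a Rac exchange factor that binds Pard3 (log2 fold change 0.56, edgeR adjusted p = 0.123), Sqstm1, the p62 scaffold that binds aPKC (-0.42, adjusted p = 0.133), and Cdc42ep4, a Cdc42 effector (-0.33, adjusted p = 0.231). Cdc42, the most abundant, had a value of 0.11 that turned to -0.15 without RPC tumour 5. Among 12 Crumbs complex relatives and partners 0 passed (median 0.08). Lin7a, which encodes an adaptor that binds the Mpp5 product, was at 23.3 ± 19.4 CPM in RPC tumours and 5.29 ± 5.47 CPM in RP tumours (SD, n = 7 each; log2 fold change 2.14 ± 0.71 (SE), p adjusted by edgeR = 0.111). Its highest value, 62.1 CPM, was in RPC tumour 5, and all 7 RPC tumours were above the RP median. For Amotl2, an angiomotin relative, it was -1.34 ± 0.50 (SE; adjusted p = 0.150, and -0.66 without RP tumour 3, which was at 329.6 CPM) and for Mpdz 1.27 ± 0.56 (SE; adjusted p = 0.209, and 0.54 without RPC tumour 1). Lin7c, the most abundant, was at 0.26 (adjusted p = 0.441, and 0.11 without RPC tumours 3, 5 and 6).

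Of 15 homologues of Par-1, Par-4 and Par-5 (the Mark kinases, Stk11 with its partners, and the 14-3-3 proteins) 0 passed and the median was 0.14. That median was 0.04 without RPC tumour 5 and -0.04 without RPC tumours 3, 5 and 6. Sfn, the epithelial 14-3-3 sigma gene, had a fitted log2 change of -1.39 ± 0.47 (SE; edgeR adjusted p = 0.116), Stradb 0.56 (adjusted p = 0.211), Mark3 0.34 (adjusted p = 0.219) and the abundant Ywhaz -0.29 (adjusted p = 0.367). Without RP tumour 6, at 69.7 CPM, Sfn was at -0.70. Without RPC tumours 3, 5 and 6 Stradb was at 0.20, Mark3 at 0.14 and Ywhaz at -0.47 on the log2 scale. Of 11 tested genes of the apical membrane and its traffic 0 passed, with the lowest list median, -0.45. That median was -0.29 without RPC tumour 5 and -0.22 without RPC tumours 3, 5 and 6 (12 genes tested in each). Ezr, which encodes the apical linker ezrin and is the most abundant of that list, was at 144.4 ± 77.4 CPM in RPC tumours and 337.4 ± 140.4 CPM in RP tumours (SD, n = 7 each; log2 fold change -1.22 ± 0.36 (SE), p adjusted by edgeR = 0.0774). Ezr passed without RPC tumour 1 (edgeR adjusted p = 0.0386). Its log2 fold change was -0.83 without RPC tumours 3, 5 and 6 (edgeR adjusted p = 0.358). With a term for non-tumour markers it was -0.90 (edgeR adjusted p = 0.418). Slc9a3r1, whose product NHERF1 binds ezrin, had -1.06 ± 0.38 (SE; adjusted p = 0.135). With DESeq2, 7 of the 62 genes passed, 3 higher and 4 lower, where DESeq2 called 9.67% of tested genes.

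**Figure D5:**
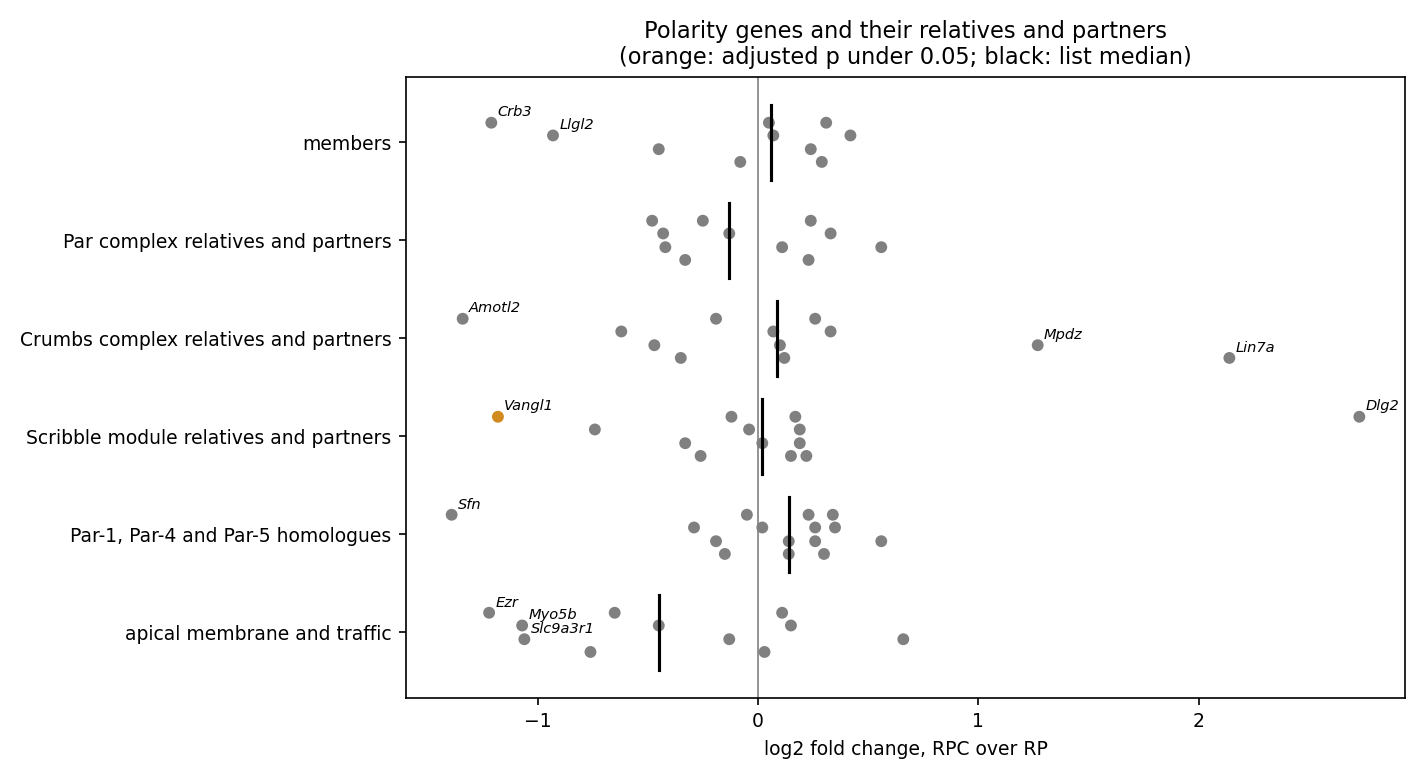
Log2 fold change of RPC over RP for the 10 polarity genes (top line) and the tested genes of 5 lists of relatives and partners; each point is a gene, orange where the edgeR adjusted p is under 0.05, and the black bar is the list median. Vangl1 (-1.18) is the only orange point, and list medians run from -0.45 to 0.14.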

How the data were processed

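RNA was measured in 14 libraries, 7 RPC and 7 RP, grouped by the title and genotype of each sample. The deposited files hold raw read counts per gene symbol. Per the labels' protocols, polyadenylated RNA was made into libraries with a NEBNext Ultra kit, and the submitters' processing notes name HTSeq 0.6.1, the aligner TopHat2 2.0.12 with genome build mm9, and bcl2fastq 1.8.2. Their settings, the annotation and the strand mode were not stated in the sources used here. Rows that name no gene were left out: 15.1% to 20.5% of counts lay outside genes, 0.883% to 1.09% were ambiguous and 8.44% to 11.2% were not unique. No pair of libraries of the same genotype looked like a repeat (chi-square per degree of freedom at least 59.2 over 42 pairs). Exons of Crb3 share 0.895% of their bases with Dennd1c on the other strand in GENCODE vM21, and those of the other 9 genes share none.

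Counts were fitted in R 4.3.3 with edgeR 4.0.16 (filterByExpr with minimum count 10 and minimum total 15, TMM, quasi-likelihood F test, no covariate), with Benjamini-Hochberg adjustment over all tested genes. SEs were taken as the absolute log2 fold change over the root of F. CPM use gene totals scaled by TMM, and log2 CPM a prior count of 2. Ratios were tested by exact permutation. The fit was tested on simulated data. Alternatives used DESeq2 1.42.0, limma 3.58.1 (voom) and those named under the results. Members and lists were chosen with earlier results of these data known. From each list the text names called genes, the smallest p up to 3 genes and the most abundant gene. Symbols, chromosomes and promoters come from RefSeq GRCm38.p6 and transcript lengths from GENCODE vM21, neither of which is the build of the counts. Twist1 was not tested, being under the filter. A marker and a gene of the apical list are not reported here, and that gene is still in the counts of its list.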

Additional observations from a re-analysis of the deposited data

Results flagged for a closer look

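A tumour that lies far from the rest of its genotype was looked for by Dixon's gap test in each group of 7, which flags about 1 in 20 groups by chance. It flagged 6.66% of tested genes among RPC tumours and 9.67% among RP tumours. RPC tumour 5 lay far below the other 6 for Crb3 (a gap of 0.781 of the whole range on the log2 scale), Llgl2 (0.727) and Inadl (0.692), where it was the low tumour for 1.69% of tested genes. RPC tumour 4 lay below the other RPC tumours for Prkci (0.606), at 50.2 CPM against 69.4 to 85.6 CPM. It was the low tumour for 0.243% of tested genes. RP tumour 3 lay above the other RP tumours for Mpp5 (0.764), at 83.6 CPM against 36.9 to 44.8 CPM. It was the high tumour for 2.36% of tested genes, the largest share of any tumour and side. The log2 ratio of Llgl2 to Llgl1 was low in RPC tumour 5 (0.726), at -5.46, and in RP tumour 3 (0.586), at -1.13.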

How the results depend on the processing

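Over 21 alternative fits of each of the 10 polarity genes, 200 of 210 values kept their direction and their side of the threshold. Prkci passed with DESeq2 (log2 fold change 0.42, adjusted p = 0.0476), so that 1 polarity gene was called there. When each library was left out, Prkcz ran from -0.04 (without RPC tumour 7, its only turn of sign) to 0.19, Inadl from -0.08 to 0.26 (below 0 without 7 of the 14 libraries) and Cdc42 from -0.15 (without RPC tumour 5) to 0.22. Inadl turned to -0.29 with limma-voom. Cdc42 turned to -0.12 with a term for non-tumour markers and to -0.11 without RPC tumours 3, 5 and 6. With limma-voom, Crb3 was at -2.08 and Llgl2 at -1.52. The causes were not tested. All genes called numbered 327 in the reported fit, 1431 with DESeq2, 503 with limma-voom, 11 without RPC tumours 3, 5 and 6, where there are fewer samples, and 7 once non-tumour markers were a term. Leaving out each library gave 51 (without RP tumour 6) to 898 (without RP tumour 3). Of the 62 relatives and partners, 1 was called in the reported fit, 7 with DESeq2, 2 with limma-voom, 0 once non-tumour markers were a term and 0 without RPC tumours 3, 5 and 6 (9 and 11 at an unadjusted p under 0.05), and 0 to 3 when each library was left out.

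The Llgl2 to Llgl1 difference was -0.83 without RPC tumours 3, 5 and 6 and from -1.85 to -1.01 when each library was left out, and the Pard6b to Pard6a difference from -0.88 to -0.39. The replicate numbers shared by the genotypes are not known to pair the samples, and the values do not settle it. Same-numbered deviations correlated from -0.05 to 0.32, over 0.1 in 3 of 7 pairs. Of the 7 RPC tumours, 3 were most like the RP tumour of their own number. With the number as a replicate block 74 genes were called in all, 0 polarity genes (2 at an unadjusted p under 0.05) and 1 of the relatives and partners, and the ratio differences were -1.60, -0.70 and 0.39 with adjusted p of 0.0469, 0.141 and 0.172 (exact sign-flip permutation). The first value, for Llgl2 to Llgl1, rests on the smallest unadjusted p that 7 pairs allow in this test. Llgl2 values were known when that ratio was chosen. With at least 10060969 counts in genes per library, the values limited most by low counts are those under 1 CPM, such as Crb3, Krt8, Grhl2 and Esrp1 in RPC tumour 5 and Dlg2 in several libraries.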
